A study of Mus musculus with 12 samples.

Results

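The genes described here encode the machinery of mitosis, the step of the cell cycle in which copied chromosomes are condensed, attached to a spindle of microtubules and parted between daughter cells. They are 46 genes chosen by symbol from the 48709 rows of an expression table of mouse CD8+ T cells, and each was present as 1 row. By role they fall into 6 genes for mitotic cyclins, Cdk1 and its activating phosphatases, 2 for transcription factors and 3 for mitotic kinases. Another 4 encode the chromosomal passenger complex, 7 the centromere and kinetochore, 5 the spindle checkpoint and 7 spindle kinesins and assembly factors. The last 12 comprise 6 genes of the central spindle and cytokinesis, 4 for the anaphase-promoting complex with securin and separase, and 2 for mitotic chromosomes. All 46 passed the filter of at least 1 TPM (transcripts scaled to a common library total, after allowing for transcript length) in at least 3 libraries, and so belonged to the 12630 genes tested. Of them, 45 were at 1 TPM or more in every library, so they did not owe the filter to the groups in which they were high. The exception was Ttk, at 0.511 TPM in 1 Naive library.

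Entry into mitosis is driven by Cdk1 bound to cyclin A or B and switched on by Cdc25 phosphatases, which remove the inhibitory phosphates that Wee1 adds. Kinetochores then join chromosomes to the spindle, and the checkpoint holds back the anaphase-promoting complex until all are attached. Its coactivator Cdc20 then directs the destruction of cyclin B and of securin, which frees separase to cut the cohesin between sister chromatids. Most transcripts of this machinery are low in resting cells, and in dividing cells they are made mainly in G2 and mitosis, under B-Myb, FoxM1 and the MuvB complex. Naive T cells rest outside the cell cycle and divide repeatedly after activation.

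The cells came from spleens of OT-I mice, in which CD8+ T cells bear a transgenic T cell receptor that recognises an ovalbumin peptide. The Naive group was unstimulated, and the 24h, 48h and 72h groups were collected 24, 48 and 72 h after activation began, with 3 libraries in each group. Activation used anti-CD3 at 2 ug/ml and anti-CD28 at 1 ug/ml, which engage the T cell receptor complex and a costimulatory receptor, with IL-2 at 10 ng/ml. It lasted 48 h, after which the cells left the activation plates, so that the 72h cells had spent their last 24 h off them. Every group shared the OT-I transgene, and the labels do not state strain, age or number of animals. The submitters call the 3 libraries of a group biological replicates, and the p-values measure the spread between these libraries.

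Between 14312854 and 19495722 whole reads were recovered per library, and replicate libraries correlated at a Pearson r of 0.9929 to 0.9951 in the 24h, 48h and 72h groups and of 0.9747 to 0.9869 in Naive. The 12 T cell markers examined all had a mean above 1 TPM in every group, and their sum was 12370 to 13640 TPM in Naive, 6503 to 7005 at 24h, 5731 to 5990 at 48h and 7164 to 7554 at 72h. At 24h 11 of the 12 were lower than in Naive by adjusted p, beside 36.6% of all genes tested. Of these, 5 were called lower, beside 21.0%. The median log2 fold change of the 12 was −0.855. Cd5 went the other way and was called higher, from 190.7 to 227.4 TPM in Naive to 564.9 to 687.5 at 24h. Trbc2 alone held 5099 to 5920 TPM of the Naive sum. In Naive the libraries also carried markers of other cells, with summed levels of 3867 to 5736 TPM over 10 B cell genes, 922.3 to 2284 over 9 myeloid genes in the table, 1442 to 2012 over 9 erythroid genes and 512.2 to 933.3 over 8 NK cell genes. By 72h these sums were 525.3 to 549.4, 4.712 to 5.412, 3.134 to 4.845 and 188.4 to 202.2 TPM, and 8 of the 9 myeloid genes were at 0 in all 3 libraries. Of the NK cell list, Eomes went from 21.7 to 29.3 TPM in Naive to 95.6 to 103.1 at 24h. Prf1 went from 117.0 to 144.6 TPM in Naive to 317.9 to 374.8 at 48h, when the other 6 were lower than in Naive. At 72h Ighm held 456.4 to 490.9 TPM of the B cell sum and Gzma 131.4 to 148.7 of the NK cell sum. The sums therefore do not measure how many such cells remained. Naive replicate 1 had the highest sum of the B cell, myeloid, erythroid and NK cell lists. It was also the highest of the Naive libraries for 38 of the 46 mitotic genes, and the part of other cells in the Naive levels was not tested.

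The first day of activation brought the mitotic genes up together. At 24h, 42 of the 46 were called higher than in Naive (adjusted p under 0.05 and a log2 fold change of at least 1 either way), where 25.7% of all genes tested were called higher, and 1 was called lower, where 21.0% were. Their median log2 fold change was 2.92, beside 0.151 for all genes tested. Summed over the 46 genes, expression went from 639.9 to 741 TPM in the Naive libraries to 3637 to 3857 at 24h. The sum stood at 4416 to 4593 TPM at 48h and 5099 to 5337 at 72h, with no overlap between groups. RNA was measured in bulk, so a smaller share of dividing cells and less RNA of a gene per cell cannot be told apart. The genes not called higher at 24h were Cenpa, Cdc25b, Pttg1 and Racgap1. The shares of 25.7% and 21.0% also stand beside the first-day counts by role that follow.

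**Figure D1:**
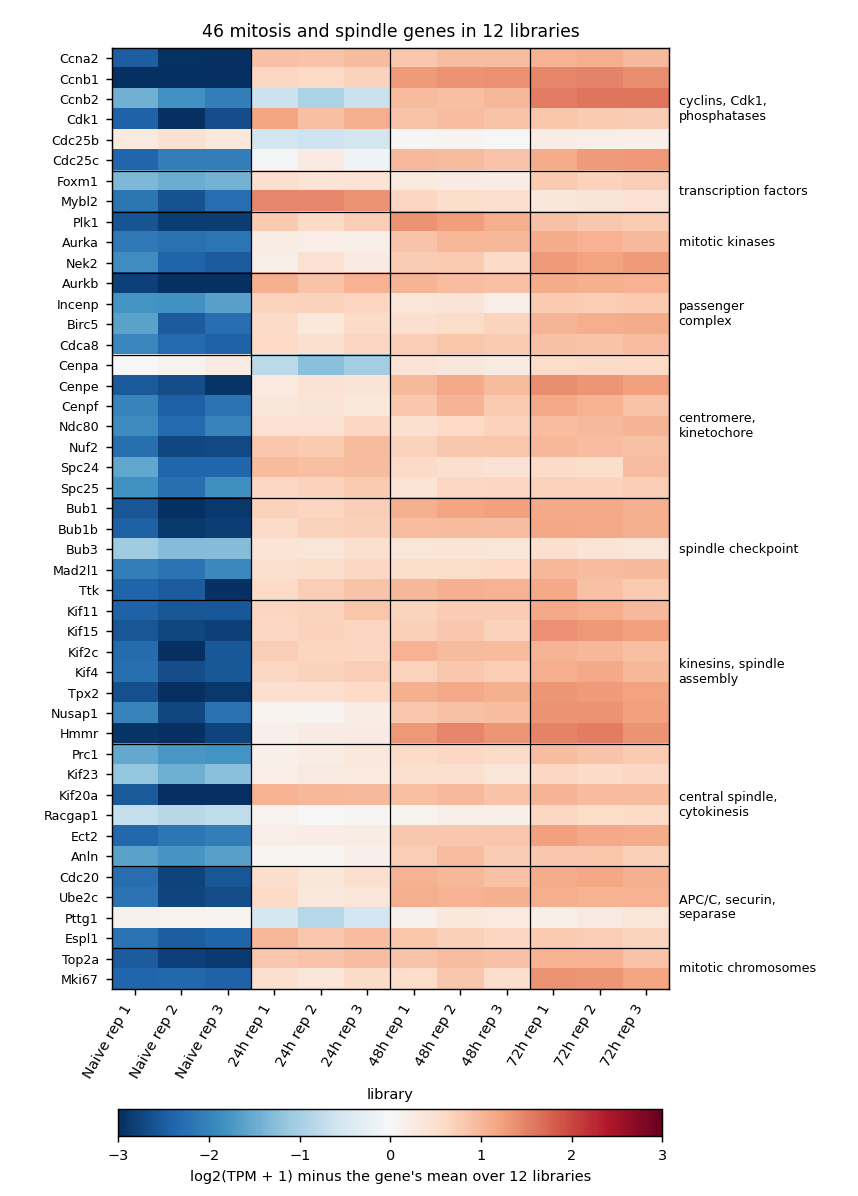
Colour gives log2(TPM + 1) minus the gene's own mean over the 12 libraries, with the 46 mitotic genes in rows grouped by role and the libraries in columns grouped by time. Most rows are blue (below the gene's mean) in the 3 Naive libraries and red (above it) in the others, while Cenpa, Cdc25b and Pttg1 are lowest in the 24h libraries.

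Among the cyclins, Ccna2, which encodes cyclin A2 and acts in S phase as well as at mitotic entry, stood at 19.7, 13.6 and 12.7 TPM in the 3 Naive libraries and at 210.0, 208 and 221 TPM at 24h. At 48h its level was 201, 217 and 217 TPM and at 72h 237, 244 and 224 TPM. All 9 libraries of activated cells were far above the Naive libraries, and the 24h and 48h values overlapped. Its log2 fold change on the first day was 3.74 (SE 0.12, limma adjusted p = 5.48e-12). Ccnb1, which encodes cyclin B1, the main partner of Cdk1 in mitosis, rose by 4.07 (SE 0.083), the largest first-day change among the 46 genes. Cdk1 itself went from 5.90 to 9.74 TPM to 108 to 129.6 TPM. Ccnb2, which encodes the related cyclin B2, changed far less that day. It stood at 30.6, 23.3 and 19.2 TPM in Naive, 54.1, 43.3 and 53.0 at 24h, 165, 160.3 and 169 at 48h and 249, 261 and 258 at 72h. The 4 groups did not overlap and each was above the one before. Its first-day log2 fold change of 1.03 (SE 0.13, adjusted p = 6.17e-06) lay just over the fold minimum and fell under it in 7 alternatives. These were median-of-ratios scaling (0.74), quantile normalization (0.74), a fit on recovered reads (0.88), a pseudocount of 5 (0.92), and leaving out Naive replicate 3 (0.88) or replicate 1 (0.97) or 3 (0.99) of 24h.

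The cyclin B genes therefore changed places in level. The Ccnb2 level was 3.95 to 5.587 times that of Ccnb1 in the Naive libraries and 0.4575 to 0.5602 times that of Ccnb1 at 24h. The ratio was 1.009 to 1.095 at 48h and 1.431 to 1.573 at 72h, on the TPM scale, which accounts for transcript length. No group overlapped another in this ratio. Cdc25c, a phosphatase that activates Cdk1, was at 1.51, 2.08 and 2.09 TPM in Naive and at 11.74, 14.3 and 10.9 at 24h. It was among the lowest of the 46 genes in every group, and rose by 2.20 on the log2 scale on the first day (SE 0.12, adjusted p = 8.37e-10).

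The transcription factor Mybl2 (B-Myb), which works with MuvB on late cell cycle genes, was at 7.24, 5.10 and 6.64 TPM in Naive and 101, 100.2 and 94.6 TPM at 24h. It then stood at 57.6, 53.0 and 52.5 TPM at 48h and 46.6, 47.7 and 50.3 TPM at 72h. The 24h libraries were the highest of all and no group overlapped another. Foxm1, a forkhead factor that acts on many of the same genes, ranged over 12.5 to 13.9 TPM in Naive, 49.0 to 51.9 at 24h, 42.8 to 45.7 at 48h and 59.8 to 64.0 at 72h. Its highest group was thus 72h. The level of Mybl2 relative to Foxm1 was 0.4067 to 0.5214 in Naive, 1.933 to 2.027 at 24h, 1.208 to 1.261 at 48h and 0.727 to 0.8122 at 72h. Both genes rose on the first day, Mybl2 by 3.78 (SE 0.097) and Foxm1 by 1.85 (SE 0.063).

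All 3 mitotic kinases rose on the first day. Plk1, which acts at centrosomes, kinetochores and the midzone, stood at 10.7, 8.83 and 8.70 TPM in Naive, 119, 106 and 116 at 24h, 178, 167 and 148 at 48h and 129, 122 and 119 at 72h. Its 48h libraries lay above those of every other group, and the 24h and 72h values overlapped. Aurka, the centrosomal Aurora kinase, was at 10.9, 10.1 and 10.5 TPM in Naive, 60.2, 59.1 and 58.8 at 24h, 94.5, 103 and 104 at 48h and 113, 107 and 102 at 72h. The 48h and 72h values of Aurka overlapped, and both groups were above 24h. Nek2, a kinase of centrosome separation, rose by 2.55 (SE 0.14, adjusted p = 1.12e-09).

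The chromosomal passenger complex, which corrects faulty spindle attachments and then guides cytokinesis, had all 4 genes higher at 24h. Incenp, its scaffold, had the highest mean of them over the 9 activated libraries, though Aurkb was slightly higher at 48h (139.0 against 136.6 TPM). It stood at 30.8, 30.6 and 34.6 TPM in Naive, 174, 179 and 172 at 24h, 140.3, 144 and 125 at 48h and 189, 182 and 190.4 at 72h. The 48h libraries were lower than those of the 24h and 72h groups without overlap. The kinase of the complex, Aurkb, rose by 3.99 (SE 0.089), and the subunits Birc5 (survivin) and Cdca8 (borealin) by 2.61 and 2.81 (SE 0.17 and 0.10).

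Of the 7 centromere and kinetochore genes, 6 rose on the first day. The 4 subunits of the Ndc80 complex, which grips the spindle microtubules, rose by 2.58 (Ndc80), 3.42 (Nuf2), 3.03 (Spc24) and 2.67 (Spc25), with SEs of 0.10 to 0.18. Spc24 was highest at 24h, at 84.6 to 87.5 TPM, against 61.5 to 67.3 at 48h and 65.2 to 86.7 at 72h, where 1 library stood at the 24h level. Cenpe, a kinetochore motor, and Cenpf, a large outer kinetochore protein, rose by 3.07 and 2.57 (SE 0.099 and 0.12). The gene that went the other way, Cenpa, is described with Cdc25b and Pttg1 further on.

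All 5 spindle checkpoint genes rose. Bub1b, which encodes BubR1, a checkpoint subunit that binds Cdc20, stood at 9.66, 6.81 and 7.10 TPM in Naive, 84.5, 92.5 and 93.8 at 24h, 109, 111 and 108 at 48h and 128, 126 and 123 at 72h. Each group of Bub1b was above the one before, with no overlap. The kinase gene Bub1 stood at 6.14, 2.99 and 4.66 TPM in Naive, 66.8, 64.7 and 69.8 at 24h, 87.3, 94.6 and 99.0 at 48h and 92.4, 91.8 and 87.7 at 72h, and its 48h and 72h values overlapped. First-day changes of the other 3 were 3.41 for the kinase gene Ttk (Mps1), 2.62 for Mad2l1 and 1.64 for Bub3. Bub3 was the most expressed checkpoint gene in Naive, at 22.0 to 26.0 TPM.

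The 7 genes of spindle motors and assembly factors all rose, by log2 fold changes between 2.46 (Nusap1) and 3.43 (Tpx2). Kif11 (Eg5), the kinesin that pushes the spindle poles apart, was the most expressed, at 18.1, 16.3 and 16.6 TPM in Naive, 160.0, 163 and 181 at 24h, 162, 172 and 172 at 48h and 226, 218 and 202 at 72h. Its 24h and 48h libraries overlapped and the 72h libraries lay above both. Hmmr, a spindle assembly protein, was at 3.96, 2.698 and 4.59 TPM in Naive, 41.4, 44.3 and 44.1 at 24h, 92.5, 104 and 94.6 at 48h and 106, 109.7 and 96.1 at 72h. Its activated libraries split into a lower 24h group and overlapping 48h and 72h groups. The other kinesin genes of this group, Kif15, Kif2c and Kif4, rose by 3.357, 3.30 and 3.17.

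For the central spindle and cytokinesis, 5 of 6 genes were called higher at 24h, where 25.7% of all genes tested were. Kif20a (Mklp2), which carries the passenger complex to the midzone, was at 7.82, 5.45 and 4.69 TPM in Naive, 104, 101 and 98.8 at 24h, 94.3, 98.5 and 90.9 at 48h and 102, 97.9 and 97.4 at 72h. Its activated groups overlapped one another in part. Anln (anillin), a scaffold of the contractile ring, was at 3.71, 3.21 and 3.67 TPM in Naive, 13.8, 13.7 and 15.0 at 24h, 22.9, 26.1 and 23.5 at 48h and 24.2, 24.7 and 22.6 at 72h. Racgap1, the centralspindlin subunit that with Ect2 directs the ring, had high Naive values of 40.9, 37.8 and 39.6 TPM. They were followed by 73.4, 67.4 and 69.5 TPM at 24h, 73.2, 76.7 and 75.5 at 48h and 104, 99.1 and 101 at 72h. Racgap1 was above Naive in every activated library but rose by only 0.81 on the log2 scale (SE 0.057, adjusted p = 1.44e-08), under the fold minimum. It was called higher at 72h, at 1.34 (SE 0.057). Ect2, Prc1 and Kif23 rose by 2.42, 1.92 and 1.54 at 24h.

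In the anaphase group, Cdc20, the coactivator that brings securin and cyclin B to the anaphase-promoting complex, was at 20.7, 14.4 and 16.9 TPM in Naive and 152, 135 and 149 at 24h. It reached 219, 209.5 and 193 TPM at 48h and 230.1, 235 and 222 at 72h, with the 72h libraries above all others. Ube2c, the ubiquitin-conjugating enzyme of that complex, rose by 2.97 (SE 0.11). Espl1, which encodes separase, went from 6.99 to 8.63 TPM to 76.4 to 87.1 TPM at 24h, a change of 3.27 (SE 0.084). Of the chromosome genes, Top2a, the topoisomerase that untangles sister chromatids, was the most expressed of the 46 in activated cells, at 32.1, 26.0 and 24.7 TPM in Naive, 328, 338 and 355 at 24h, 338, 358 and 342 at 48h and 389.6, 385 and 342 at 72h. Mki67 (Ki-67), which coats mitotic chromosomes and is a common marker of proliferation, was at 27.9, 28.5 and 27.0 TPM in Naive, 209, 194 and 223 at 24h, 221, 261 and 216 at 48h and 381, 378 and 342 at 72h. The activated groups of Top2a overlapped, whereas the 3 libraries of 72h were the highest for Mki67.

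**Figure D2:**
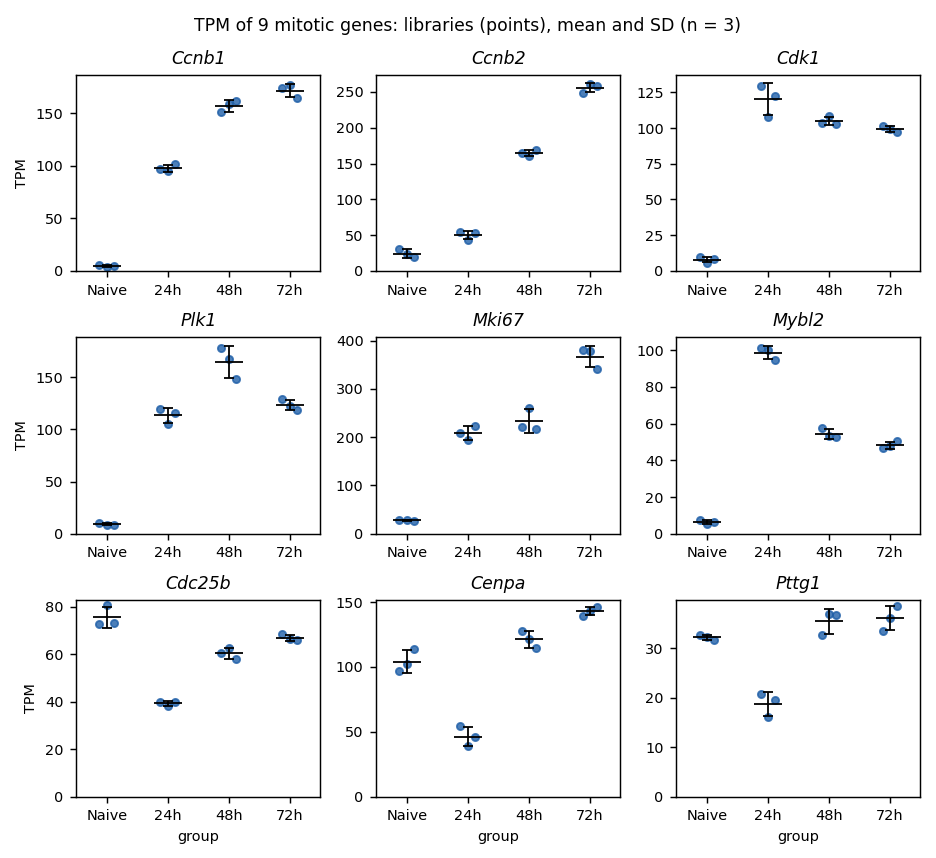
TPM of 9 mitotic genes in each group, with 1 point per library, a bar at the mean and whiskers of 1 SD (n = 3). Ccnb2 climbs at each time, Cdk1 and Mybl2 are highest at 24h, Plk1 at 48h and Mki67 at 72h, and Cdc25b, Cenpa and Pttg1 are lowest at 24h.

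Against this rise, Cenpa, Cdc25b and Pttg1 were lower at 24h than in Naive by adjusted p, and Cenpa also passed the fold minimum. In Naive they ranked 1, 2 and 4 among the 46 genes by mean TPM. Cenpa encodes the histone H3 variant that marks centromeres, and it stood at 96.6, 102 and 114 TPM in Naive, 54.1, 39.2 and 45.6 at 24h, 128, 122 and 114 at 48h and 139.6, 143 and 146 at 72h. The 24h libraries were the lowest, without overlap, and the lowest 48h library, at 114.4 TPM, lay just over the highest Naive library, at 113.5 TPM. Its first-day change was −1.16 (SE 0.098, limma adjusted p = 1.11e-07). Cdc25b, the phosphatase that starts Cdk1 activation at the centrosome, was at 72.8, 80.6 and 72.9 TPM in Naive, 39.8, 37.99 and 39.9 at 24h, 60.3, 62.8 and 58.1 at 48h and 68.3, 66.5 and 66.0 at 72h. Its 24h values were the lowest, with no overlap with any other group. Pttg1, which encodes securin, the inhibitor of separase, was at 32.8, 32.2 and 31.7 TPM in Naive, 20.8, 16.1 and 19.6 at 24h, 32.6, 37.0 and 36.9 at 48h and 33.6, 36.2 and 38.6 at 72h. The 24h libraries were again below all others, and the 48h and 72h libraries overlapped.

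For Cdc25b the first-day change was −0.93 (SE 0.060, adjusted p = 7e-09) and for Pttg1 −0.75 (SE 0.094, adjusted p = 5.63e-06). By adjusted p alone 36.6% of all genes tested were lower at 24h. Both genes passed the fold minimum under median-of-ratios scaling (−1.22 and −1.05) and quantile normalization (−1.27 and −1.01), and Cdc25b also in the fit on recovered reads (−1.11). Median-of-ratios scaling moved the median log2 fold change of all genes from 0.151 to −0.096. The RNAs of securin (Pttg1) and separase (Espl1) thus moved in opposite directions, by −0.75, under the fold minimum, and by 3.27. The Pttg1 to Espl1 ratio was 3.799 to 4.612 in Naive and 0.2104 to 0.2384 at 24h, on the TPM scale. Most of this shift came from the rise of Espl1. The marker genes of other cell types in the Naive libraries apply to these Naive levels as well. Naive replicate 1, which had the highest sums of those markers, had the lowest Cenpa and Cdc25b of the Naive libraries and the highest Pttg1, and the part of other cells was not tested. In the GENCODE M21 annotation Cenpa and Pttg1 shared no exon sequence with another gene.

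Promoters are shown next for the mitotic cyclins B, the kinase Plk1 and Cdc20, which rose on the first day, and for the 3 genes that were lower at 24h. Late cell cycle promoters are known for a CHR element (cell cycle genes homology region), bound through MuvB, and for CCAAT boxes, bound by NF-Y. The 150 bases before the transcript start were taken from RefSeq on GRCm38.p6, 5′ to 3′ on the gene's strand, and capitals mark each CCAAT and each CHR word (TTTGAA or TTCGAA) on either strand. Ccnb1 lies at chr13:100786487-100786636 on the minus strand, Ccnb2 at chr9:70421555-70421704 on the minus strand, Plk1 at chr7:122159285-122159434 on the plus strand and Cdc20 at chr4:118437344-118437493 on the minus strand. Cenpa lies at chr5:30666736-30666885 on the plus strand, Cdc25b at chr2:131186798-131186947 on the plus strand and Pttg1 at chr11:43425982-43426131 on the minus strand.
Ccnb1: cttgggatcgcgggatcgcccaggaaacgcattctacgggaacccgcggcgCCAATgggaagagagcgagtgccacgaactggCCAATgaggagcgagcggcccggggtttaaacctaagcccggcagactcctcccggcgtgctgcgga
Ccnb2: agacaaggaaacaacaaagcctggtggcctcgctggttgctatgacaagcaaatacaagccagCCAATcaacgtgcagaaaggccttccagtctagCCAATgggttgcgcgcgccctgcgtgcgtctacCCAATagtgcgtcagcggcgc
Plk1: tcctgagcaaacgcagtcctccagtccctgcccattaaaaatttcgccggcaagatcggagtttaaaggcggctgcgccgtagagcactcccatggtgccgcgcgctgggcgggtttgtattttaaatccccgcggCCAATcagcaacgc
Cdc20: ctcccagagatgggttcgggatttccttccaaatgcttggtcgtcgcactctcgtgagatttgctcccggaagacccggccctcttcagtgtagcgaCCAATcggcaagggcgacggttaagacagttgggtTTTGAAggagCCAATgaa
Cenpa: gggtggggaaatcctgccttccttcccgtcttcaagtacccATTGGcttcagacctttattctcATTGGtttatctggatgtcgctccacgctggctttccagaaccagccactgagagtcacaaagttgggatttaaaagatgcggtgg
Cdc25b: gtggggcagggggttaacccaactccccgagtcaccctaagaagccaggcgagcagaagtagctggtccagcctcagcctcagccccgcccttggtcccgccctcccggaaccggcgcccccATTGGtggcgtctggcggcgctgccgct
Pttg1: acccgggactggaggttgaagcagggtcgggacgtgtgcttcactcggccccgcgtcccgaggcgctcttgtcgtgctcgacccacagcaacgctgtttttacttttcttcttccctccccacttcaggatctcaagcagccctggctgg

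Ccnb2, with the smallest first-day change of the cyclins, showed 3 CCAAT words in this stretch, and Ccnb1, with the largest, showed 2. The Pttg1 stretch held neither word. Some CHR words lay outside the printed stretch, in the 300-base window from 250 bases before to 50 after the start. In Ccnb2 they began 167 bases before and 5 after the start, in Cenpa 17 after, in Cdc25b 8 after and in Plk1 31 after.

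A promoter was found for 38 of the 46 genes, and 29 of the 38 (76.3%) held a CHR word in the 300-base window, against 21.7% of 27025 genes. The 27025 include genes that were not tested here, and a gene was counted when any of its promoters matched. A CCAAT word was present in 28 (73.7%), against 41.1%, and both were present in 25 (65.8%), against 8.61%. Both strands were searched, and a CCAAT and a CHR word can overlap at their ends. Cenpa and Cdc25b, which were lower at 24h, held both, like Cdk1, Plk1 and Cdc20. Birc5, Mad2l1, Mybl2, Nuf2, Nusap1 and Pttg1 held neither in this window. A match describes the letters of a window and is not a bound site.

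**Figure D3:**
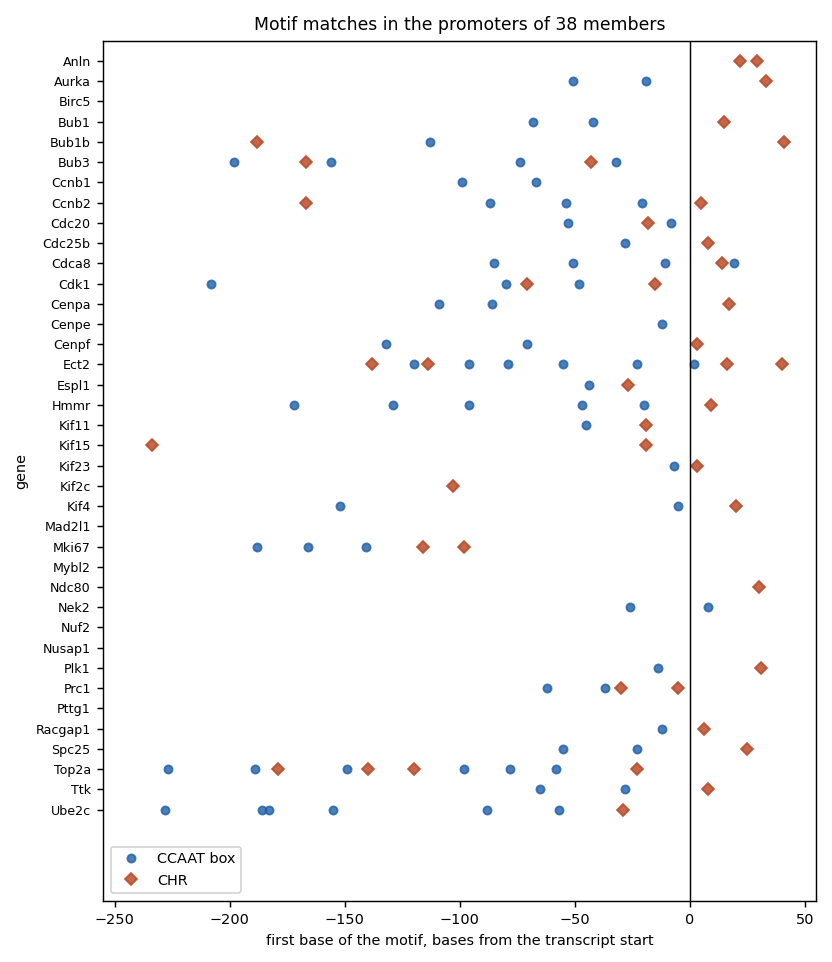
Positions of CCAAT words (circles) and CHR words (diamonds) in the promoters of 38 mitotic genes, with 1 row per gene and distance from the transcript start in bases on the horizontal axis. Many CHR words lie close to the start and most CCAAT words before it, and the rows of Birc5, Mad2l1, Mybl2, Nuf2, Nusap1 and Pttg1 are empty.

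On the second day the changes were smaller and differed between genes. Between 24h and 48h only Ccnb2, Cenpa and Hmmr were called higher among the 46, where 4.95% of all genes tested were. None was called lower, where 3.07% were. These counts of calls are not far from the share over all genes. Ccnb2 rose by 1.70 (SE 0.13, adjusted p = 4.58e-07), Cenpa by 1.38 (SE 0.098, adjusted p = 2.81e-07) and Hmmr by 1.15 (SE 0.12, adjusted p = 7.49e-06). By adjusted p alone 22 were higher and 3 lower, beside 22.1% and 30.0% of all genes, and the members' median change was 0.245 against −0.057. Libraries of the 2 groups did not overlap for 25 genes that were higher and 5 that were lower at 48h, beside 27.6% and 36.7% of all genes.

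The rises at 48h by adjusted p alone came from every role but the transcription factors, the passenger complex and the mitotic chromosomes. Among the regulators of Cdk1, Cdc25c rose by 0.89 (SE 0.12), Ccnb1 by 0.68 (SE 0.083) and Cdc25b by 0.61 (SE 0.060), whereas Ccna2 and Cdk1 did not pass the test (−0.01 and −0.19, adjusted p = 0.953 and 0.234). All 3 kinases rose, Aurka by 0.75 (SE 0.063), Plk1 by 0.53 (SE 0.088) and Nek2 by 0.42 (SE 0.14). In the anaphase group Pttg1 rose by 0.89, Ube2c by 0.65 and Cdc20 by 0.51 (SE 0.094, 0.11 and 0.10), and Espl1 did not pass (−0.18, adjusted p = 0.0925). Of the kinetochore genes Cenpe and Cenpf rose with Cenpa, by 0.65 and 0.52, and none of the 4 Ndc80 complex genes passed the test, with changes from −0.43 (Spc24) to 0.09 (Ndc80). Nusap1 (0.74), Tpx2 (0.55), Anln (0.73), Ect2 (0.60) and Prc1 (0.35) rose as well, as did Bub1 (0.47), Bub1b (0.28) and Kif23 (0.19).

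The 3 that fell from 24h to 48h were Mybl2, by 0.85 on the log2 scale (SE 0.097, adjusted p = 1.33e-05), Incenp, by 0.36 (SE 0.066, adjusted p = 0.000593), and Foxm1, by 0.18 (SE 0.063, adjusted p = 0.0315). Of the 22 rises, 18 kept their sign and an adjusted p under 0.05 in all 23 alternative settings, and so did the falls of Mybl2 and Incenp. Bub1 missed the threshold without 24h replicate 2, 48h replicate 2 or 48h replicate 3 (adjusted p up to 0.0654), and Nek2 without 24h replicate 1 or 3 or 48h replicate 1 or 2 (up to 0.077). Bub1b (up to 0.112), Kif23 (up to 0.134) and Foxm1 (up to 0.194) lost the call in 6, 11 and 8 settings. For Bub1b these included the fits without 24h replicate 1 or 2 or any 1 library of 48h, for Kif23 those without any 1 library of 24h or 72h or 48h replicate 1 or 2, and for Foxm1 those without any 1 library of 24h or 48h replicate 2 or 3. Without Naive replicate 1 the count of falls was 5, and without all 3 Naive libraries it was 6.

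**Figure D4:**
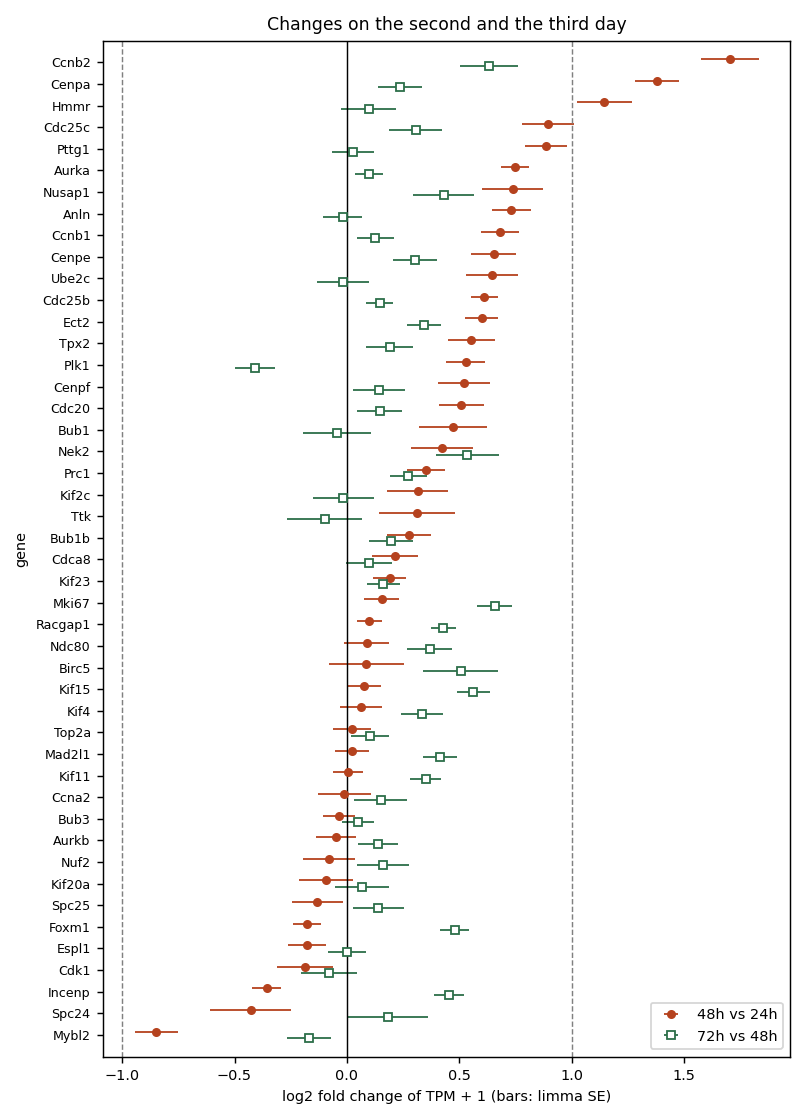
Log2 fold change of TPM + 1 for each of the 46 mitotic genes from 24h to 48h (filled circles) and from 48h to 72h (open squares), with whiskers of 1 limma SE, genes in rows ordered by the first change, and dashed lines at the fold minimum of 1 either way. Ccnb2, Cenpa and Hmmr pass the line from 24h to 48h and no square does, and the square of Plk1 lies farthest left.

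On the third day, after the cells had left the activation plates, no mitotic gene was called in either direction with the fold minimum, where 2.81% of all genes tested were called higher and 3.22% lower. By adjusted p alone 17 were higher and 1 lower, beside 23.5% and 19.0% of all genes. Libraries of 48h and 72h did not overlap for 29 genes that were higher and 3 that were lower at 72h, beside 32.5% and 26.7% of all genes. The median change of the 46 genes was 0.156, against 0.022 for all genes. Mki67 rose most, by 0.66 (SE 0.078, adjusted p = 2.65e-05), followed by Ccnb2 (0.63, SE 0.13), Kif15 (0.56, SE 0.073), which backs up Kif11 in the spindle, and Nek2 (0.54, SE 0.14). Foxm1 and Incenp, lower at 48h, were higher again by 0.48 (SE 0.063) and 0.45 (SE 0.066). Racgap1, Mad2l1, Ndc80, Kif11 and Ect2 rose by 0.43, 0.41, 0.37, 0.35 and 0.34. Plk1 was the gene that fell, by 0.41 on the log2 scale (SE 0.088, adjusted p = 0.00234).

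Of these 17 rises 11 kept their sign and an adjusted p under 0.05 in all 23 alternative settings, and so did the fall of Plk1. Under median-of-ratios scaling the count of rises was 11. The others were Birc5 (0.51), Nusap1 (0.43), Kif4 (0.33), Cdc25c (0.31), Cenpe (0.30) and Prc1 (0.27). Kif4 missed the threshold under median-of-ratios scaling alone (adjusted p = 0.0502). Cenpe (up to 0.0942), Prc1 (up to 0.0784), Nusap1, Birc5 and Cdc25c missed it there too, and all but Cenpe of these also under quantile normalization. Cenpe and Prc1 missed it without 48h replicate 1 or 3 or 72h replicate 1 or 2, and Nusap1 (up to 0.0719) without 48h replicate 1 or 2 or 72h replicate 1 or 2. Birc5 (up to 0.0817) missed it without 48h replicate 1 or 2 or any 1 library of 72h, and Cdc25c (up to 0.144) without 24h replicate 1 or any 1 library of 48h or 72h.

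Taking both later steps by adjusted p alone, 7 genes rose at each, namely Ccnb2, Cdc25c, Cenpe, Ect2, Nek2, Nusap1 and Prc1. Of the 7 only Ccnb2 and Ect2 kept both rises in all 23 alternative settings. A further 14 rose at the first of these steps and did not pass the test at the next, and 8, Mki67, Kif11, Kif15 and Mad2l1 among them, passed only at the next. Plk1 rose and then fell, Foxm1 and Incenp fell and then rose, and Mybl2 fell and then did not pass the test. The fall of Foxm1 was lost in 8 settings. The remaining 13 passed at neither step. They include Ccna2, Cdk1, Aurkb, Top2a, Espl1 and 3 of the 4 Ndc80 complex genes. The shares of these patterns over all genes tested were not counted, so whether the mitotic genes differ from them in pattern was not tested.

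Set against Naive, 42 of the 46 genes were called higher at 48h, where 24.7% of all genes tested were, and 43 at 72h, where 24.5% were. None was called lower, beside 20.7% and 19.0% of all genes. By adjusted p alone 1 gene, Cdc25b, was lower at 48h and at 72h, beside 36.7% and 34.8% of all genes. These comparisons use the same Naive libraries as that of 24h, so they are not independent of it. The median log2 fold change was 3.09 at 48h and 3.45 at 72h, against 0.151 and 0.206 for all genes. At 72h Ccnb1, Aurka and Hmmr were 4.87, 3.24 and 4.48 above Naive on the log2 scale, with SEs from 0.06 to 0.12.

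By 72h Cdc25b, Cenpa and Pttg1 lay within 0.46 of their Naive levels on the log2 scale. Cdc25b was −0.31 from Naive at 48h (SE 0.060, adjusted p = 0.000278) and −0.17 at 72h (adjusted p = 0.0192), below all Naive libraries in both groups. Cenpa was 0.22 from Naive at 48h (SE 0.098, adjusted p = 0.0525) and 0.46 at 72h (adjusted p = 0.000759); each 72h library lay over the highest Naive library. Pttg1 did not pass the test at either time (0.13 and 0.16, adjusted p = 0.204 and 0.135). Under median-of-ratios scaling and quantile normalization the 48h values of Cenpa and both values of Pttg1 turned below 0.

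By group means alone, of the 46 genes 34 had their highest mean at 72h, 6 at 48h (Plk1, Bub1, Ttk, Kif2c, Anln and Ube2c), 5 at 24h (Cdk1, Mybl2, Spc24, Kif20a and Espl1) and 1, Cdc25b, in Naive. The same shares over all genes were not counted. By adjusted p alone 17 genes rose from 48h to 72h, so many of the 72h maxima did not pass the test against 48h. Most of the named maxima at 24h and 48h did not stand apart by the test from the group that followed in time. From 48h to 72h Plk1 fell and Bub1, Ttk, Kif2c, Anln and Ube2c did not pass (adjusted p = 0.847, 0.679, 0.949, 0.896 and 0.929). From 24h to 48h Mybl2 fell and Cdk1, Spc24, Kif20a and Espl1 did not pass (adjusted p = 0.234, 0.0605, 0.542 and 0.0925). The libraries of Spc24 nevertheless did not overlap in this step, and 72h was not tested against 24h. The 24h mean as a percent of the 72h mean had a median of 72.3 over the 46 genes, from 19.59 for Ccnb2 and 32.38 for Cenpa to 121.0 for Cdk1 and 204.6 for Mybl2. By role the median ran from 55.13 for the kinases and 57.75 for the cyclin group to 87.0 for the passenger complex, and it was 142.7 for the pair of transcription factors (Foxm1 80.87 and Mybl2 204.6). A list of 36 DNA replication genes, which act earlier in the cell cycle, had a median of 114.9, from 82.35 for Gins3 to 197.1 for Tyms. Of the replication genes 30 of 36 were highest at 24h and 30 were above their 72h mean at that time, against 5 of the 46 mitotic genes on each count. From 24h to 48h 1 replication gene was higher and 31 lower by adjusted p alone, beside 22.1% and 30.0% of all genes, with a median change of −0.542. None of them passed the fold minimum, and the difference between the lists was not tested. In this step 8 further lists of segregation genes, given below, had lower medians than the 46 genes.

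**Figure D5:**
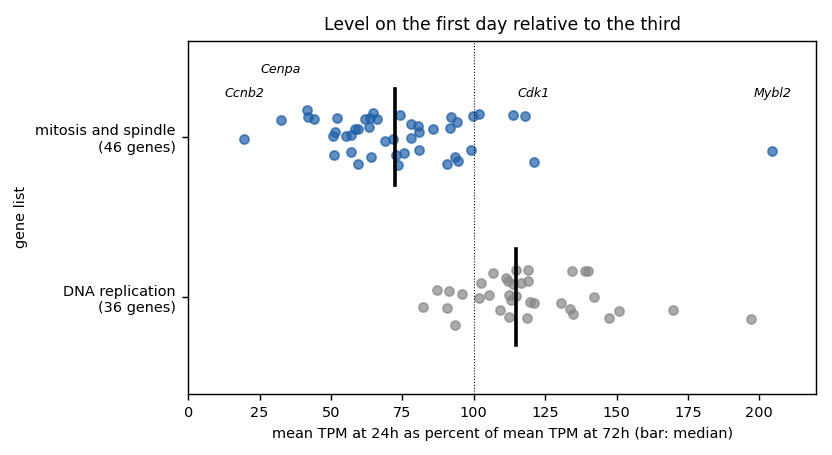
Mean TPM at 24h as a percent of mean TPM at 72h, with 1 point per gene for the 46 mitotic genes (upper row) and 36 DNA replication genes (lower row) and a bar at each median. The mitotic genes centre on 72.3% and the replication genes on 114.9%, and Mybl2 lies apart at 204.6%.

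Other genes of chromosome segregation that were not among the 46 were read from 8 further lists, each counted among its tested members, with Kif14 in 2 of them. For all genes tested the share called on the first day was 25.7% higher and 21.0% lower. On that day 6 of 8 condensin genes were called higher and none lower, led by Ncapg (3.88), Ncapg2 (3.56) and Smc2 (3.40). Further kinetochore genes were higher in 25 of 34 cases, with a median of 2.38, and further spindle and centrosome genes in 21 of 25, with a median of 2.01. Kntc1 (3.71), Cenpk (3.62) and Cenph (3.60) led the former, and Kif14 (2.99), Troap (2.96) and Dlgap5 (2.85) the latter. Cohesin and its regulators had 7 of 15 higher and 1 lower (Mau2, a cohesin loader, −1.03), with Sgol1 (3.02), Esco2 (2.95) and Sgol2a (2.84) highest. Of 17 core genes of the anaphase-promoting complex and its regulators 6 were called higher, with Fbxo5 (Emi1) at 2.45, Anapc1 at 1.92 and Cdc16 at 1.69. Cytokinesis genes had 7 of 14 higher, with Cep55, which acts at the last cut between daughter cells, at 3.24, and 1 lower (Chmp4b, −1.06). In the MuvB list 2 of 5 were called higher, Rbbp4 (1.22) and Lin9 (1.00). The counts of the MuvB list and of the anaphase-promoting complex are not far from the share over all genes. From 24h to 48h the medians of the 8 lists ran from −0.113 (anaphase-promoting complex) to 0.157 (spindle and centrosome). The median was 0.245 for the 46 genes and −0.057 for all genes. By adjusted p alone 5 of the 34 kinetochore genes were higher and 9 lower, beside 22.1% and 30.0% of all genes. The counts were 7 and 4 for spindle and centrosome genes, 3 and 2 for condensins and 4 and 3 for cohesin.

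A list of regulators of mitotic entry and exit, brakes and phosphatases among them, had 8 of 16 called higher at 24h and none lower. The shares over all genes were 25.7% and 21.0%. Of this list, Cdc25a rose by 3.16, Cks1b by 2.94 and Mastl by 2.51. In it Wee1, the kinase that holds Cdk1 inactive, was called in both later steps. It stood at 9.14, 7.29 and 7.69 TPM in Naive, 41.3, 40.2 and 43.2 at 24h, 20.1, 17.2 and 20.3 at 48h and 46.1, 46.5 and 42.0 at 72h. The 48h libraries lay between Naive and the other activated groups, with no overlap with either. Wee1 fell by 1.08 on the log2 scale from 24h to 48h (SE 0.09, adjusted p = 1.3e-06) and rose by 1.18 from 48h to 72h (SE 0.09, adjusted p = 8.43e-07). Apitd1 (Cenps), a kinetochore gene, was lower at 48h than at 24h, at −1.17.

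Exons of 14 of the 46 genes overlapped those of another gene in GENCODE M21 on GRCm38, and for 9 of them the other gene was at 1 TPM or more. These pairs were Ccna2 with Exosc9, Cdc20 with Elovl1, Cdc25b with Spef1, Cdc25c with Gm3550, Cdca8 with 9930104L06Rik, Kif20a with Cdc23, Kif4 with Pdzd11, Nusap1 with Oip5 and Prc1 with Rccd1. The sources used here do not say whether reads were counted by strand, so the reads of such pairs cannot be told apart.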

How the data were processed

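The authors deposited TPM values of 48709 genes in 12 libraries, and each library summed to 1000000. Per the submitters' processing notes, FastQC 0.11.9, cutadapt 2.9, STAR 2.7.7a and edgeR 3.36.0 were used with the GRCm39 build. The sources used here do not name the counting tool or strand setting. Values were taken as log2(TPM + 1), so fold changes of low genes are understated. A gene was kept when 3 or more libraries reached 1 TPM (12630 genes). Means of the 4 groups were fitted with limma 3.58.1 (R 4.3.3), moderated by empirical Bayes with a trend on intensity. All groups shared 1 spread, although the Naive replicates were less alike. The 5 comparisons were 2-sided, with Benjamini-Hochberg adjustment over all genes tested. Calls needed an adjusted p under 0.05 together with a log2 fold change of 1 or more in size, and counts at adjusted p alone are named as such.

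Whole reads were recovered from the TPM values within a tolerance of 0.001 for 100% of 19181 genes above 0; the reads of some genes may be understated by a whole-number factor. They gave the depth and 1 alternative fit (limma voom). The test was tried on simulated data. Promoters came from RefSeq (GRCm38.p6), and gene overlaps from GENCODE M21 on GRCm38, another build than the authors'. Older symbols in the table, among them Sgol1, Sgol2a, Apitd1, Casc5 (Knl1) and Stra13 (Cenpx), were matched through RefSeq synonyms. Figures used Python 3.11.15, pandas 2.3.3, numpy 2.4.6 and matplotlib 3.10.9.

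The members, gene lists and tests were chosen with earlier results of these data known. Values in every library are given for the most expressed member of each role in activated cells, the member of largest change from 24h to 48h, and members not called higher at 48h vs Naive; of other lists, up to 3 called genes of largest change are named, and Foxm1, Cdc25c and others are given besides. Alternatives were a pseudocount of 0.1 or 5, no filter or 5 TPM, quantile normalization, median-of-ratios scaling, no trend, a replicate block, only the 2 groups compared, no fold minimum and each library left out. The voom fit, the fit without the 3 Naive libraries and the recount at adjusted p alone under the other alternatives were added after seeing the data.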

Additional observations from a re-analysis of the deposited data

How the results depend on the processing

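With the fold minimum, no count of calls moved by over 1.5 times with a pseudocount of 0.1 or 5, either filter, no intensity trend, only the 2 groups compared, or any library left out. Members called lower at 24h vs Naive came to 3 under median-of-ratios scaling, quantile normalization and no fold minimum, and to 2 in the limma voom fit on recovered reads. Without the fold minimum 1 was lower at 48h and 1 at 72h vs Naive, 22 were higher and 3 lower from 24h to 48h, and 17 higher and 1 lower from 48h to 72h. By adjusted p alone, 11 were higher from 48h to 72h under median-of-ratios scaling, 2 were lower in that step in a fit of only the 2 groups or without the 3 Naive libraries, and 6 were lower from 24h to 48h without the 3 Naive libraries. With single libraries left out, 18 to 24 were higher and 2 to 5 lower from 24h to 48h, and 12 to 23 higher from 48h to 72h. The cause was not tested.

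Same-numbered libraries did not deviate together (18 pairs, correlations −0.052 to 0.089), so the numbers were not taken as pairs. With a replicate block, 42 members were called higher and 1 lower at 24h vs Naive, 42 and 0 at 48h, 43 and 0 at 72h, 3 and 0 from 24h to 48h and 0 and 0 from 48h to 72h. By adjusted p alone the block gave 21 higher and 4 lower from 24h to 48h, and 17 and 1 from 48h to 72h.

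Log2 fold changes near 0, none past the test's threshold, changed sign. Under median-of-ratios scaling these were Cenpa (−0.0348) and Pttg1 (−0.1174) at 48h vs Naive, Pttg1 at 72h vs Naive (−0.1468), Ccna2 (0.0341) and Bub3 (0.0075) from 24h to 48h, and Bub3 (−0.0060) and Pttg1 (−0.0294) from 48h to 72h. Under quantile normalization they were Cenpa (−0.0822) and Pttg1 (−0.1114) at 48h vs Naive, Pttg1 at 72h vs Naive (−0.1485) and from 48h to 72h (−0.0372), and Ccna2 (0.0832), Aurkb (0.0559), Bub3 (0.0539) and Kif20a (0.0203) from 24h to 48h. The voom fit gave Ccna2 0.0201.

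With single libraries left out, the changes from 24h to 48h ranged over −0.0126 to 0.0611 for Mad2l1, −0.0288 to 0.0601 for Kif11, −0.0023 to 0.0536 for Top2a and −0.0297 to 0.0260 for Ccna2. From 48h to 72h they ranged over −0.0357 to 0.0224 for Kif2c, −0.0328 to 0.0754 for Pttg1, −0.0414 to 0.0522 for Espl1 and −0.0543 to 0.0359 for Anln. Depth limits the lowest genes, Ttk and Cdc25c in Naive.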
